A study of Mus musculus with 11 samples.

Results

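The genes described here are the 4 stathmins (Stmn1, Stmn2, Stmn3 and Stmn4) and 6 further genes of the neuronal microtubule cytoskeleton (Dcx, Dclk1, Tubb3, Map2, Mapt and Map1b), 10 genes chosen by symbol and not by a cut on their values, out of 48440 genes in the count table of cultured neural progenitor cells (NPCs) and 32285 in the single-cell matrices. The study deleted the RNA-binding protein Syncrip from the mouse dorsal telencephalon by crossing Syncrip fl/fl mice, with loxP sites around exons 2, 3 and 4, to Emx1-Cre, which is active in dorsal cortical progenitors and not in the ganglionic eminences; the study uses cKO for this cross, and its methods also name Nestin-Cre mice. Bulk RNA-seq was made of NPCs of E14.5 embryos grown in culture with EGF and bFGF, 3 cultures labelled WT and 3 labelled cKO. Single-cell RNA-seq was made of the dorsal telencephalon of 1 WT and 1 cKO embryo of E14.5 from the same litter. The labels do not tie a culture to an animal, so the p-values below measure the spread between these cultures, which may be technical.

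Microtubules are polymers of alpha- and beta-tubulin that grow and shrink at their ends, and young neurons depend on them to move, to extend an axon and to carry cargo along it. Stathmins bind free tubulin dimers and promote disassembly, whereas doublecortin (Dcx), its kinase relative Dclk1 and the proteins Map1b, Map2 and tau (Mapt) bind the polymer and stabilize it. Tubb3 encodes a beta-tubulin isotype used as a marker of neurons, and Dcx marks migrating neuroblasts.

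The 6 culture libraries held 16962903 to 22708400 counts, and the 10 genes together took 0.391% to 0.445% of the counts in the WT cultures and 0.322% to 0.327% in the cKO cultures, without overlap. Syncrip itself was not lower in the cultures labelled cKO: its level was 79.2 ± 1.09 CPM (counts per 1000000 counts of the library after TMM scaling; SD, n = 3) in WT and 86.8 ± 4.69 (n = 3) in cKO, with a log2 fold change of 0.13 (SE 0.075, edgeR adjusted p = 0.18). The count covers the whole gene, of which 27.0% overlaps other genes, and the deleted exons could not be read separately in it. The study reports RNA-seq tracks of control and cKO neurospheres that showed the deletion of these exons. It also reports a check of the knockout in protein of the postnatal neocortex. The read tracks were not analysed here, so each direction below is that of the cultures as labelled. Reads of Y-linked genes were found in WT cultures 1 and 2 and in cKO culture 1.

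Tubb3 was listed at 0 in all 6 cultures. It lies at chr8:123411424-123422015 of mm10, wholly inside the annotated span of the predicted gene Gm20388 at chr8:119910841-124345722, which held 13182 to 24970 counts per culture. All 10755 genes of the table that lie wholly inside another gene were listed at 0 (100%), against 40.4% of the other 37685 genes. The value of Tubb3 in the cultures is therefore not a measure of its expression, and the gene is described below only in the single cells. The other 9 genes passed the filter on low counts and entered a fit of all 14432 genes that passed. The length given in the table is the whole span of a gene with its introns, so levels were compared between cultures and not between genes.

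In the cultures, 8 of these 9 genes were lower in cKO than in WT at an edgeR adjusted p below 0.05, none was higher, and Map2 did not pass. Over all 14432 genes tested, 39.5% were called, 19.8% lower and 19.7% higher. The median log2 fold change of the 9 genes was -0.92, and that of all tested genes was 0.002. In all 8 genes called lower, the 3 cKO cultures lay below the 3 WT cultures, as did 24.7% of all tested genes; the reverse held for 25.7% of them. In cultures of mixed cells, fewer neurons, less RNA per neuron and a change within other cells such as progenitors cannot be told apart.

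**Figure D1:**
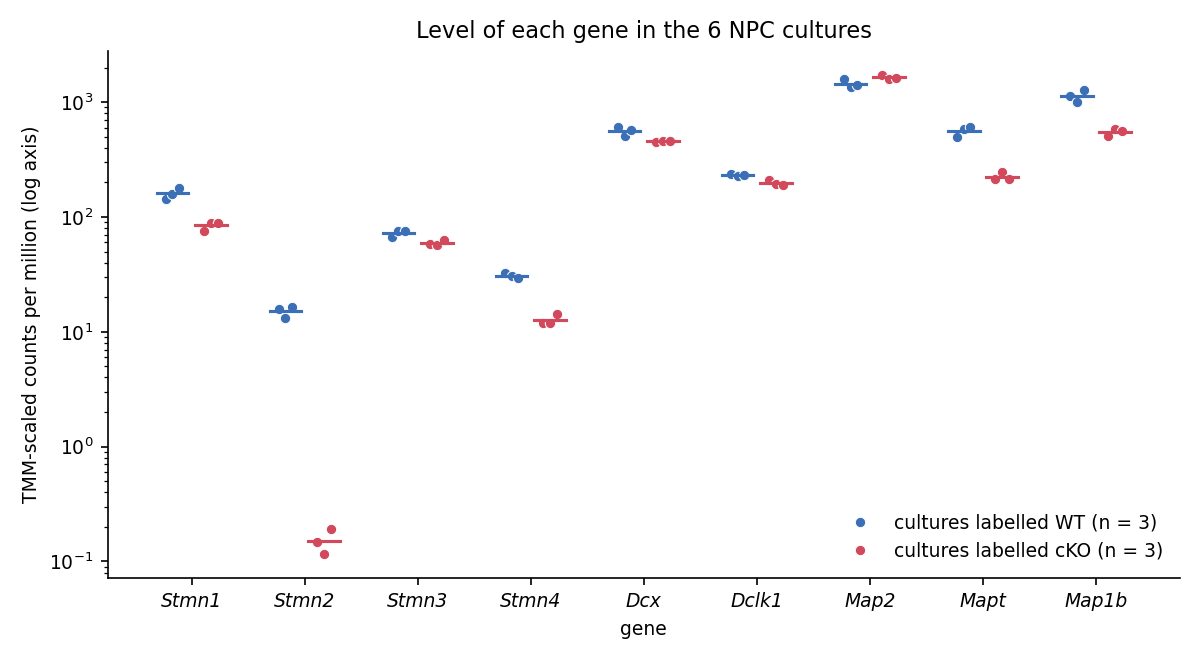
Level of the 9 measurable genes (x axis) in TMM-scaled CPM (y axis, log scale) in the 3 cultures labelled WT and the 3 labelled cKO; points are single cultures and bars are means. The cKO cultures lie below the WT cultures in every gene shown except Map2, and Stmn2 has the widest gap, from 15.1 to 0.152 CPM.

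Among the stathmins, Stmn2 (chr3:8509360-8561606), which encodes a membrane-bound stathmin of growing axons, was nearly lost. Its raw counts were 348, 237 and 368 in the WT cultures and 3, 2 and 4 in the cKO cultures. In CPM these were 15.1 ± 1.68 (SD, n = 3) and 0.152 ± 0.0384 (n = 3), with a fitted log2 fold change of -6.56 (SE 0.26, edgeR adjusted p = 8.22e-10). The summed counts of 953 and 9 gave a level 98.0-fold higher in WT per library total, with an exact 95% interval from 51.4 to 215 that covers counting error only. Only 3 of the 14432 tested genes had a lower fitted fold change.

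The other stathmins fell less. Stmn4 (chr14:66344296-66361680), a neuronal stathmin, was at 32.4, 30.8 and 29.3 CPM in the WT cultures and at 11.8, 11.9 and 14.3 in the cKO cultures. This is a log2 fold change of -1.28 (SE 0.11, edgeR adjusted p = 1.28e-06), and every WT culture was more than 2-fold above every cKO culture. Stmn1 (chr4:134468320-134473843), the cytosolic stathmin that dividing progenitors also express, was at 142.9, 159 and 180.3 CPM in WT and at 76.0, 89.4 and 88.8 in cKO, a log2 fold change of -0.92 (SE 0.095, edgeR adjusted p = 5.89e-06). Stmn3 (chr2:181306459-181314500), a stathmin of the Golgi region of neurons, was at 67.0, 76.1 and 75.3 CPM in WT and at 57.7, 56.7 and 63.0 in cKO. Its log2 fold change of -0.30 (SE 0.087, edgeR adjusted p = 0.015) was the smallest of the family, and it lost the call without cKO culture 2 (adjusted p = 0.072).

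The genes of the doublecortin pair also fell by little. Dcx (chrX:143855842-143933311) was at 608, 503 and 568 CPM in the WT cultures and at 452, 457 and 454 in the cKO ones, which is a log2 fold change of -0.30 (SE 0.085, edgeR adjusted p = 0.0124). The SD was 2.50 CPM over the cKO cultures and 53.1 CPM over the WT cultures (n = 3 each), and the groups did not overlap. Dclk1 (chr3:55242364-55539068) was at 239, 228 and 232 CPM in WT and at 210.1, 193 and 191 in cKO, a log2 fold change of -0.23 (SE 0.075, edgeR adjusted p = 0.0236). Neither call held in every set of 5 cultures: without cKO culture 3 the adjusted p was 0.057 for Dcx and 0.122 for Dclk1, and without cKO culture 2 it was 0.099 for Dclk1. Of the span of Dclk1, 14.7% overlaps other genes.

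The microtubule-associated proteins split into those that fell by more than 2-fold and Map2. Mapt (chr11:104231390-104332090), which encodes the axonal protein tau, was at 492, 581 and 612 CPM in the WT cultures and at 214, 244 and 213 in cKO. Its log2 fold change was -1.33 (SE 0.096, edgeR adjusted p = 2.57e-07), the largest fall after Stmn2. Map1b (chr13:99421464-99516602), a protein of growing axons, was at 1122, 998 and 1273 CPM in WT and at 504, 583 and 564 in cKO, a log2 fold change of -1.04 (SE 0.10, edgeR adjusted p = 3.43e-06). Map2 (chr1:66175273-66442583), known from dendrites, was at 1590.4, 1346 and 1394 CPM in WT and at 1731, 1594 and 1617 in cKO. All 3 cKO cultures were thus above all 3 WT cultures, by a log2 fold change of 0.19 (SE 0.091), but the edgeR adjusted p was 0.111. It passed the threshold when WT culture 1 was left out (0.26, adjusted p = 0.02) and with the sex of the culture, read from Y-linked counts, as a covariate (0.22, adjusted p = 0.0439), and was at 0.04 (adjusted p = 0.731) once a trend of fold change with gene span was removed.

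Other genes of the microtubule system moved in both directions, with falls more frequent than rises. Of 98 listed genes, 93 were tested, 35 were lower (19.8% of all tested genes were) and 10 were higher (19.7%), and their median log2 fold change was -0.14. By role, 5 of 12 tested tubulins were lower and none was higher, as were 8 of 11 further structural microtubule-associated proteins with 1 higher. Of the collapsin response mediators, tubulin-binding proteins that act in axon guidance, 4 of 5 were lower and 1 was higher. Of 22 motors and dynein regulators 9 were lower and 1 was higher, of 14 end-binding proteins 3 were lower and 2 higher, of 12 genes of tubulin modification 2 were lower and 3 higher, of 10 kinases 3 were lower and 1 higher, and of 6 severing genes 1 was lower.

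The largest falls among those with at least 5 CPM on average were in Dpysl5, a collapsin response mediator, from 172 ± 35.4 to 49.4 ± 2.03 CPM (SD, n = 3 each), and in Tuba4a, an alpha-tubulin, with a log2 fold change of -1.58 (SE 0.17). They were followed by Cdk5r1, the activator p35 of the kinase Cdk5, with a log2 fold change of -1.27 (SE 0.097), the neuronal kinesin Kif5a with -0.99 (SE 0.11) and the beta-tubulin Tubb4a with -0.96 (SE 0.095). All 5 had edgeR adjusted p-values of 1.61e-05 or lower. Above the same level, the largest rise was in Nav3, a protein of growing microtubule ends, from 61.3 ± 1.10 to 103 ± 6.05 CPM (SD, n = 3 each, log2 fold change 0.75, edgeR adjusted p = 5.58e-06). Smaller rises were found in the polyglutamylase Ttll11 (0.40 on the log2 scale), the tubulin carboxypeptidase Vash1 (0.37), the kinase Mark3 (0.35) and Dclk2 (0.31), a relative of Dclk1. The calls of Dclk2 (adjusted p = 0.0719) and Ttll11 (0.143) were lost once a trend of fold change with gene span was removed, that of Ttll11 also without WT culture 1 or 3 or cKO culture 2 or 3, and that of Vash1 without cKO culture 2.

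**Figure D2:**
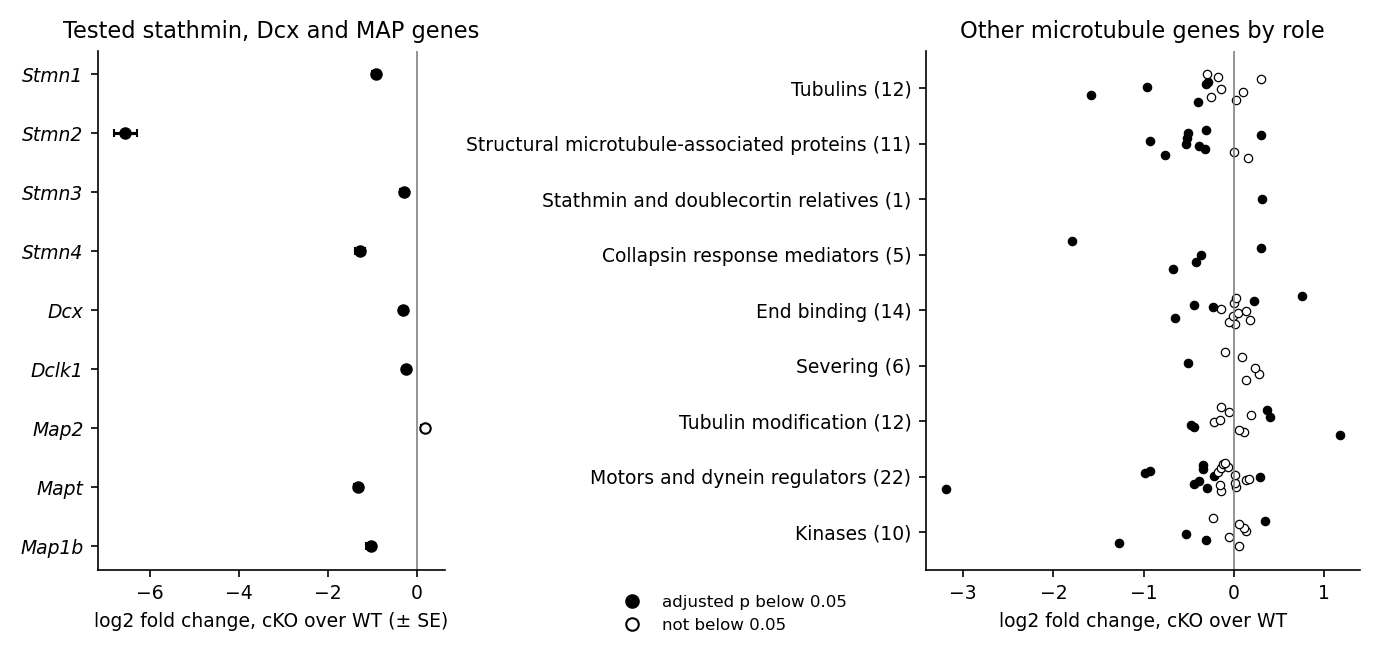
Log2 fold change between the cultures labelled cKO and WT (x axis) for the 9 measurable genes (left, with SE) and for 93 other microtubule genes grouped by role (right, number tested in parentheses); filled points have an edgeR adjusted p below 0.05. The 2 panels have different x axes; on the left all filled points lie below 0 and on the right 35 filled points lie below and 10 above it.

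Most other neuron markers were lower as well. Of 18 tested neuron markers, none of them a microtubule gene, 15 were lower in cKO and none was higher, with a median log2 fold change of -0.60, and their summed level was 1844 to 2057 CPM in the WT cultures and 1283 to 1306 in the cKO cultures. The largest falls were in Myt1l, a transcription factor of neurons (-2.86 on the log2 scale), in the RNA-binding proteins Celf4 (-1.83) and Rbfox3 (-1.40), in Nsg2 (-0.98) and in the synaptic protein Snap25 (-0.83). The 3 markers that did not pass were Elavl4, Syt1 and Scg3, with log2 fold changes of -0.07, 0.10 and 0.19, and they are named here after their values were seen. Of the markers of migrating neurons 5 of 6 were lower, with a summed level of 377 to 445 CPM in WT and 224 to 235 in cKO. The deep-layer markers did not share this direction: 3 of 7 were lower and 3 higher (Sox5, Tle4 and Mef2c, named after their values were seen), and their summed level was 409.5 to 448 CPM in WT and 523 to 538 in cKO. All 8 cycling genes were higher in cKO, with a summed level of 163 to 214 CPM in WT and 306 to 444 in cKO, and 6 of 7 astrocyte markers were lower, with a summed level of 5523 to 5778 CPM in WT and 3286 to 3674 in cKO. Ganglionic eminence markers summed to 257 to 307 CPM in WT and 468 to 529 in cKO, with 3 of 7 lower and 1 higher, and markers of the oligodendrocyte lineage to 4017 to 4328 and 2985 to 3547, with 3 of 8 lower and 2 higher. Markers of red blood cells, microglia and endothelial cells summed to at most 3.30 CPM in any culture, and the defining Hba-a1, Hbb-bs, C1qa, Tyrobp, Cldn5 and Cdh5 were at 0. Pericyte markers, which share Cspg4 with the oligodendrocyte lineage, summed to 271 to 334 CPM in WT and 310 to 347 in cKO. Of these, 2 of 4 tested were lower and none was higher. Meningeal fibroblast markers summed to 3.45 to 4.11 CPM in WT and 6.62 to 7.63 in cKO, with the 1 tested gene higher. The part of these marker changes in the falls of the stathmin and microtubule genes was not tested.

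Short sequences near the start sites were compared because most of the measurable genes fell in the cultures. RefSeq promoter windows of GRCm38.p6, 250 bases before to 50 after the start, were at hand for 6 of the 10 genes, Dcx, Dclk1, Stmn3 and Map1b, which were called lower, and Tubb3 and Map2, which were not. They were searched on both strands for the E-box CAGATG, which neurogenic bHLH transcription factors are known to bind. It was found in 2 of the 6 windows, in 17.2% of all 32851 windows and in 9.59% of the 73 windows of the other microtubule genes. The 30 bases around each match are given from 5′ to 3′ on the strand of the gene with the E-box in capitals, at chr2:181314558-181314587 for Stmn3, 75 bases before the start, and at chr13:99516798-99516827 for Map1b, 213 bases before it.
Stmn3: ccatggctgcggCAGATGaaatataggcct
Map1b: aatgatttgctgCAGATGacatcagccctg

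The single-cell data gave the level of all 10 genes in classes of cells. The files held 8289 barcodes of the WT and 9659 of the cKO embryo, where the labels state about 6000 cells put on each channel and the methods a recovery below that number, and 8214 and 9559 passed the filters. Of the barcodes, 22 occurred in both libraries. Cells were clustered without the microtubule genes among the variable genes, and 11 classes were named from marker genes, with the ending "-like". They hold 960 WT and 1322 cKO apical progenitor (AP)-like cells, 721 and 751 intermediate progenitor (IP)-like cells, 1697 and 1948 migrating neuron-like cells, and 1602 and 1819 deep-layer neuron-like cells. There were also 1084 and 1510 ganglionic eminence cell-like cells, which Emx1-Cre should not reach, and smaller classes. The deleted exons of Syncrip could not be read separately in the UMI counts, so its level in the cells was not used to check the genotype. With 1 embryo of each genotype no test between them was possible, and the intervals given are exact 95% intervals of the UMI counts that cover counting error only. Each level is the UMI count of the gene over all UMIs of the class, in CPM.

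Every one of the 10 genes was higher in deep-layer neuron-like cells than in AP-like cells, in both embryos, but by very different factors. The fold was 18.2 in WT and 13.8 in cKO for Stmn2 and 16.4 and 13.1 for Mapt. It was between 6.66 and 10.4 for Tubb3, Stmn3, Stmn4 and Dcx in either embryo, between 4.08 and 4.25 for Dclk1, about 3.5 for Map2 (3.52 and 3.43), about 2.5 for Map1b (2.62 and 2.51) and close to 2 for Stmn1 (2.05 and 2.13). With cells called doublets left out the folds were larger, at 42.6 in WT and 32.2 in cKO for Stmn2, 34.0 and 26.3 for Mapt, 19.2 and 15.8 for Dcx and 19.0 and 13.8 for Tubb3, and still between 2 and 3 for Stmn1 and Map1b. Together the 10 genes took 0.378% of the UMIs of AP-like cells in WT and 0.382% in cKO, 0.919% and 0.964% in migrating neuron-like cells, and 1.31% and 1.26% in deep-layer neuron-like cells.

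Free RNA in the droplets can add to such levels, and classes of non-neural cells were used for comparison. Red blood cell-like cells, with a median of 3569.5 UMIs in WT and 3099.5 in cKO against 12535 and 12680.5 in AP-like cells, held Stmn2 at 125 CPM in WT and 155 in cKO. AP-like cells held 77.4 (72.8 to 82.4) and 84.1 (80.0 to 88.3), which is below that level. In cells thinned to 3000 UMIs, the share of AP-like cells with a Stmn2 UMI was 12.9% (10.7% to 15.4%) in WT and 14.7% (12.8% to 16.9%) in cKO. It was 24.2% (11.1% to 42.3%) and 14.3% (4.03% to 32.7%) in red blood cell-like cells, so AP-like cells were not above them beyond the intervals. A given amount of free RNA is a larger share of a cell with few UMIs. These values therefore set no floor for AP-like cells. Stmn3, Stmn4, Dcx, Tubb3 and Mapt were also not above red blood cell-like or meningeal fibroblast-like cells in either embryo, beyond the intervals. In the cKO embryo, however, Stmn2 and these 5 genes were higher in AP-like cells than in the 33 endothelial cell-like cells, whose median was 22067 UMIs. Dcx was also higher than in microglia-like cells (89.3 against 55.1 CPM). In the WT embryo Stmn2 was instead higher in the 24 endothelial cell-like cells, at 209 CPM (184 to 236). In cKO the endothelial levels of Stmn2 and Dcx were 38.6 and 44.1 CPM. With cells called doublets left out, the mean AP-like levels of Stmn2 and Dcx, given below, were under those values. The part of background in the AP-like levels of these genes was not tested. Stmn1, Dclk1, Map2 and Map1b were each higher in AP-like cells of both embryos than in any of the 4 non-neural classes, beyond the intervals.

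These 2 groups of genes did not sort the changes in culture. Of the 5 measurable genes that were not above red blood cell-like cells, Stmn2, Stmn4 and Mapt fell in the cKO cultures by 1.28 or more on the log2 scale, but Stmn3 and Dcx fell by 0.30. Of the 4 genes above all non-neural classes, Stmn1 and Map1b fell by 0.92 and 1.04, Dclk1 fell by 0.23 and Map2 did not pass.

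**Figure D3:**
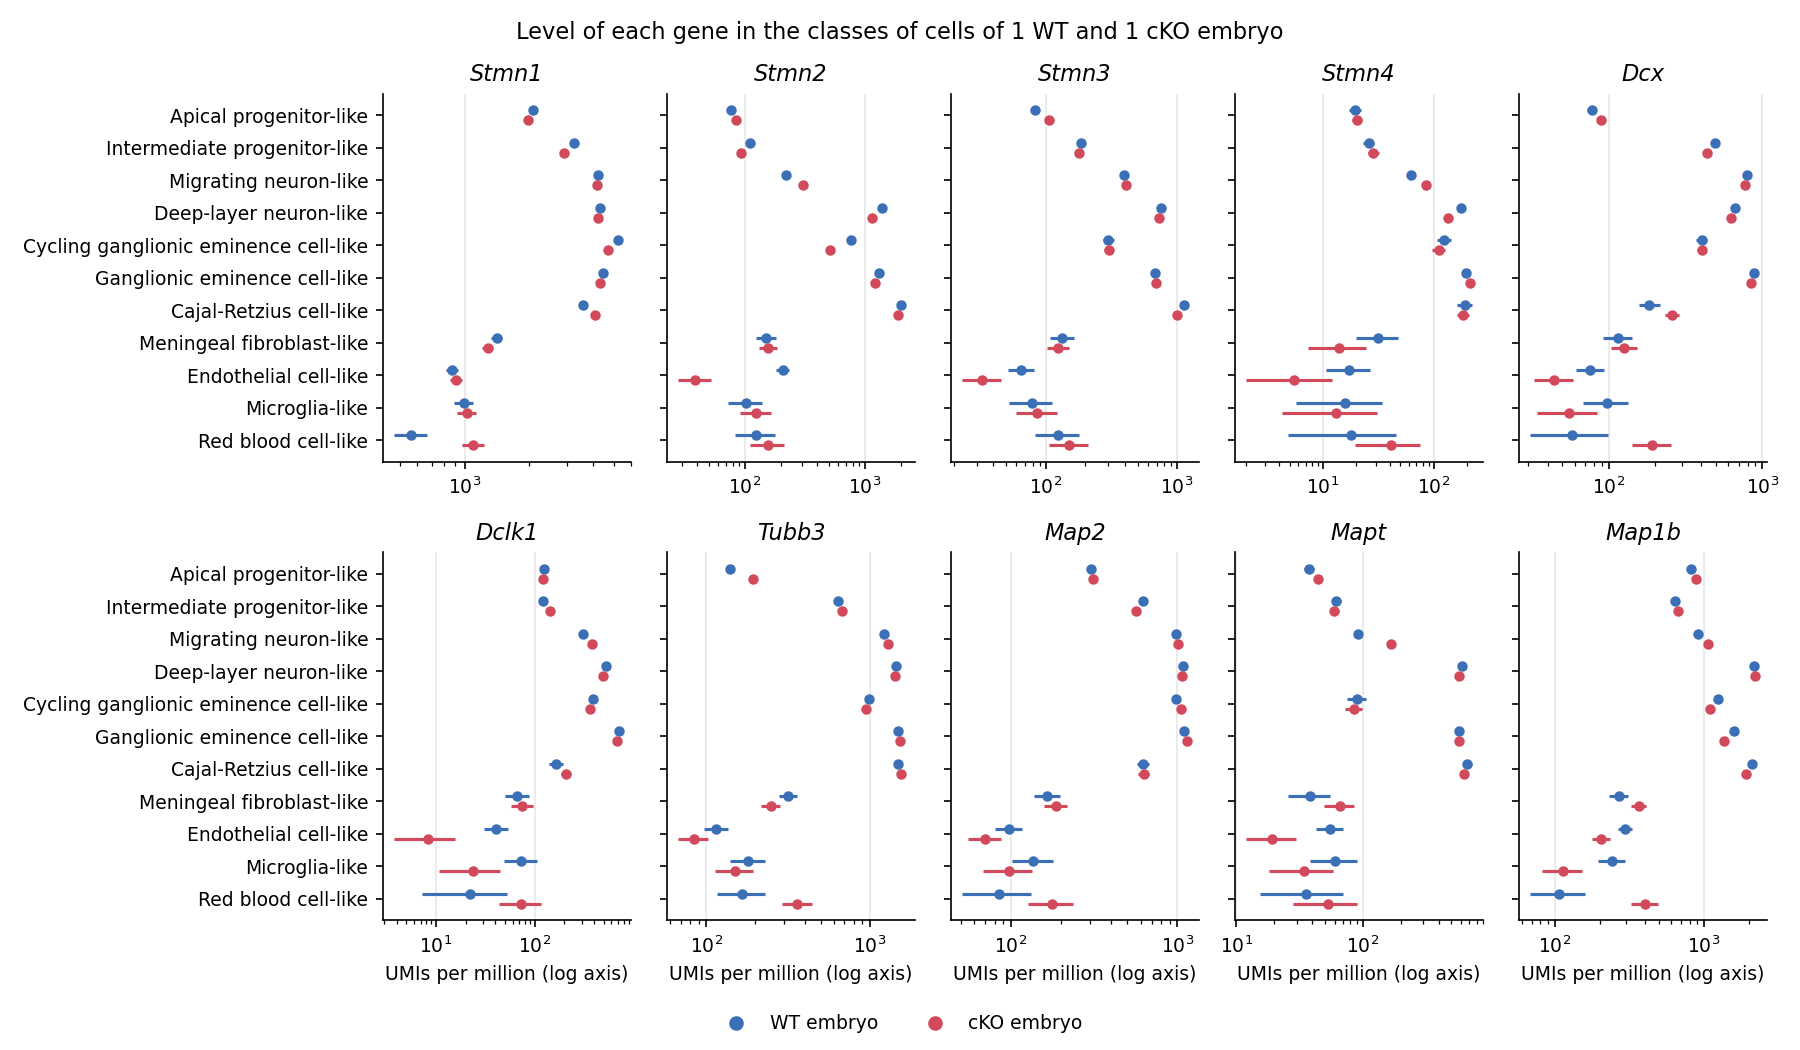
Level of each gene (x axis, CPM of the class, log scale) in 11 classes of cells (y axis) of the WT and the cKO embryo; points are summed levels and bars are exact 95% intervals of counting error. Stmn2 and Mapt have their largest step between migrating and deep-layer neuron-like cells, whereas Dcx and Tubb3 are high in IP-like cells too, and Stmn1 is high in all neural classes.

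The genes came up in sequence along the dorsal lineage. In IP-like cells, Tubb3 reached 643 (628 to 659) CPM in WT and 679.5 (664 to 695) in cKO, from 139 and 192 in AP-like cells, and Dcx reached 488 and 438, from 77.3 and 89.3. In the same cells Stmn2 (112 and 92.5), Stmn4 (25.9 and 28.5) and Mapt (62.0 and 59.6) were not above red blood cell-like cells beyond the intervals. In the cKO embryo all 3 were above endothelial cell-like cells, whereas in the WT embryo Stmn2 was below them. Cluster 23 held most of the Stmn2 of IP-like cells in WT, at 640 CPM (350 in cKO), against 33.9 to 82.9 in the other 3 IP-like clusters of both embryos. It had only 44 WT and 47 cKO cells, with a median of 25975 UMIs against 11645 in the IP-like cluster 8. The part of doublets in cluster 23 was not tested. Dcx was highest in the dorsal lineage in migrating neuron-like cells, at 789 and 771, and lower again in deep-layer neuron-like cells, at 665 and 624. Stmn2 and Mapt had their largest step between migrating and deep-layer neuron-like cells. Stmn2 went from 221.5 to 1410.0 in WT and from 304 to 1162 in cKO, and Mapt from 92.4 to 618 and from 168 to 576. Map1b stood apart from the others in that it was higher in AP-like cells (817 and 879) than in IP-like cells (634 and 667), and then rose to 2143 and 2203 in deep-layer neuron-like cells.

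Stmn1 was the least restricted of the genes. It had a UMI in 98.3% of WT and 97.8% of cKO AP-like cells thinned to 3000 UMIs, and in 99.6% and 99.4% of deep-layer neuron-like cells. Its level rose from 2098 and 1975 CPM in AP-like cells to 3251 and 2917 in IP-like cells and 4218 and 4153 in migrating neuron-like cells, and by smaller steps to 4300 and 4217 in deep-layer and 4466 and 4279 in ganglionic eminence cell-like cells. Each of these steps was beyond the intervals within an embryo. Over both embryos, however, migrating, deep-layer and ganglionic eminence cell-like cells overlapped with their neighbours in this order. The highest level in a named class, 5208 and 4700, was in the cycling ganglionic eminence cell-like cells, a class of 106 WT and 127 cKO cells. The unnamed cluster 13 was higher still, at 6467 and 6268.

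Neurons outside the dorsal lineage expressed the same genes in other proportions. In ganglionic eminence cell-like cells Dcx (886 and 844 CPM) and Dclk1 (709 and 687.5) were higher than in any other named class, beyond the intervals, while the unnamed cluster 7, of low UMI counts, had Dclk1 at 713 and 515. Cajal-Retzius cell-like cells, early-born neurons of the marginal zone with 63 WT and 111 cKO cells, had the highest Stmn2 (2026 and 1887) and Stmn3 (1132 and 1004) of the named classes but little Dcx (184 and 258) and Dclk1 (165 and 208). The neighbours in the order of Mapt levels, Cajal-Retzius, deep-layer and ganglionic eminence cell-like cells, were not apart beyond the intervals in both embryos, at 576 to 677 in all 6 values, and Mapt was near 90 in the cycling cells of the ganglionic eminence (89.7 and 84.7).

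Counted cell by cell at 3000 UMIs, AP-like cells had a median of 3 of the 10 genes in both embryos, and IP-like cells 5. Migrating neuron-like cells had 6 in WT and 7 in cKO, deep-layer neuron-like cells 9 and 8, and ganglionic eminence cell-like cells 9 and 9. The non-neural classes had medians of 1 to 2.5.

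**Figure D4:**
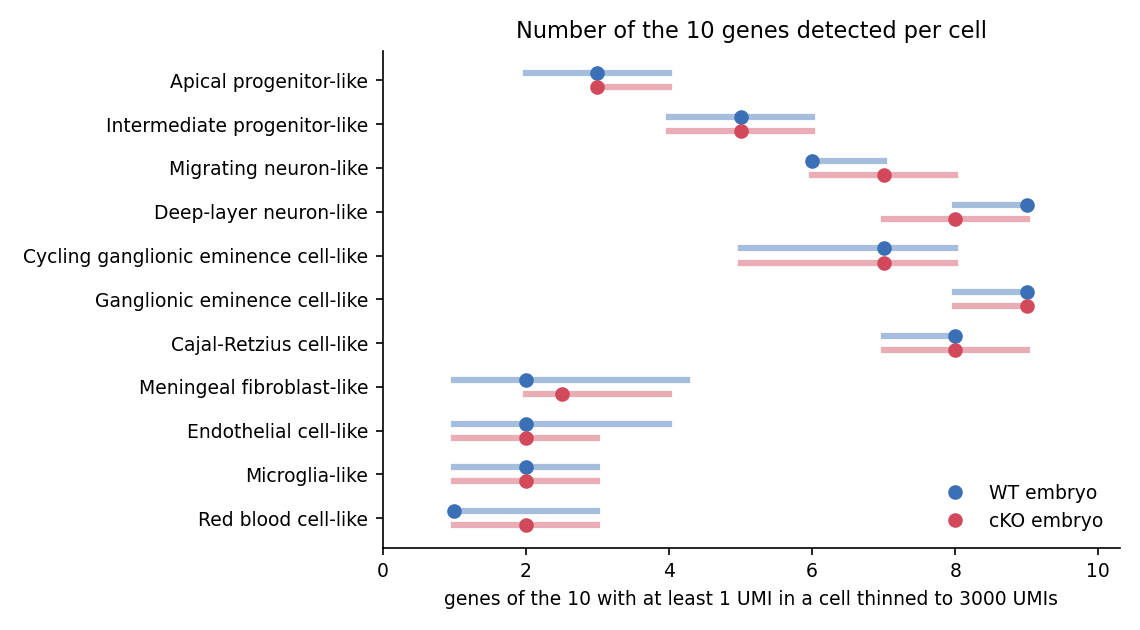
Number of the 10 genes with at least 1 UMI (x axis) per cell in 11 classes (y axis) of the WT and the cKO embryo after each cell was thinned to 3000 UMIs; points are medians and bars run from the lower to the upper quartile over cells, which are not replicates. Medians go from 3 in AP-like cells to 8 and 9 in deep-layer neuron-like cells and are at most 2.5 in non-neural cells.

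The tubulin isotypes also differed between these classes. Tuba1a rose from 1701 CPM in WT and 2041 in cKO AP-like cells to 7147 and 7641 in deep-layer neuron-like cells, and Tubb2b from 1735 and 1941 to 4544 and 4379. Tuba1b went the other way, from 990 and 1233 to 137 and 157. Tubb5 was high throughout, at 1544 and 1821 in AP-like and 2623 and 2736 in deep-layer neuron-like cells.

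Across the 11 classes, with both embryos summed, other genes followed each of the 10 closely by Pearson's r of log2(level + 1), which is a description over classes that share libraries and depth. Stmn1 and Map2 had the same closest genes, Jpt1 (r = 0.993 and 0.988) and Elavl3 (0.982 and 0.983), and they also resembled each other (0.985). Stmn2 was closest to Scn3b (0.938) and Syt1 (0.932), and Mapt to Scn3b (0.981) and Ina (0.98). Stmn3 was closest to Mast1 (0.984) and the kinesin Kif5a (0.983), and Ptprn2 was among the genes closest to Stmn4 (0.961). Dcx was closest to Nsg2 (0.974) and Add2 (0.966), Dclk1 to Kcnmb4os2 (0.979) and Smpd3 (0.971), Tubb3 to Gdap1l1 (0.986) and Scg3 (0.984), and Map1b to Nudt10 (0.969) and Gnao1 (0.964). Among the 10 genes themselves the lowest r was between Stmn2 and Dcx (0.623).

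Between the embryos, differences in these genes were small in most classes. In deep-layer neuron-like cells, 9 of the 10 genes had a lower level in the cKO embryo, where 53.4% of all genes with at least 200 UMIs did and 46.6% were higher, and the median log2 ratio was -0.07. Only Stmn2 and Stmn4 differed there by more than 0.11 on the log2 scale. Stmn2 was at 1410.0 CPM in WT and 1162 in cKO, a log2 ratio of -0.28 (-0.30 to -0.26), and Stmn4 at 176 and 136, a log2 ratio of -0.37 (-0.43 to -0.31). Both were lower in each of the 3 deep-layer clusters, by 0.25 to 0.53 for Stmn2 and by 0.31 to 0.48 for Stmn4. Mapt was lower in each of the 3 clusters too, by 0.13 to 0.17, and by 0.10 in the class as a whole. Tubb3 (-0.02, -0.04 to 0.002) and Map2 (-0.01, -0.03 to 0.01) had intervals that held 0. A median of 16332 UMIs per cell in WT and 15576 in cKO went with these levels.

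In ganglionic eminence cell-like cells, 5 of the 10 genes were higher and 5 lower in cKO, where 51.6% of all genes were higher and 48.4% lower. Stmn4, lower in the cKO deep-layer neurons, was at 197 CPM in WT and 213 in cKO here, a log2 ratio of 0.11 (0.02 to 0.20). It was higher in each of the 4 clusters, with an interval above 0 in 2 of them. Stmn2 was lower by 0.09 (-0.13 to -0.06), less than in the deep-layer neurons. The largest difference was in Map1b, at 1588 and 1356, a log2 ratio of -0.23 (-0.26 to -0.20), which in deep-layer neuron-like cells was 0.04 (0.02 to 0.06). The smaller class of cycling ganglionic eminence cell-like cells had Stmn2 at 774 CPM in WT and 514 in cKO. That is a log2 ratio of -0.59 (-0.71 to -0.47), a larger fall than in the deep-layer neurons. Stmn4 was at -0.16 (-0.44 to 0.12) in these cycling cells.

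In migrating neuron-like cells the direction of several genes rested on 1 cluster. Over the whole class 8 of the 10 genes were higher in cKO (48.5% of all genes were, and 51.5% were lower), led by Mapt with a log2 ratio of 0.86 (0.78 to 0.94), Stmn2 with 0.46 (0.40 to 0.51) and Stmn4 with 0.42 (0.32 to 0.53). Cluster 12, led by genes such as Tfap2d, held 146 WT and 484 cKO cells and had more of these genes than the rest of the class, with Stmn2 at 824 and 876.5 CPM against 84.8 and 82.1 in cluster 1 and 268 and 188 in cluster 4. Within cluster 12 the largest differences were rises in cKO of Mapt (0.50, 0.37 to 0.63) and Map1b (0.40, 0.32 to 0.47). Dcx (-0.13, -0.22 to -0.04) and Map2 (-0.08, -0.16 to -0.001) were lower there. Without this cluster, a comparison added after the data were seen, 4 of the 10 were higher (46.7% of all genes were). Stmn2 was then lower in cKO by 0.38 (-0.46 to -0.30) and Stmn4 by 0.43 (-0.59 to -0.28), Mapt was at -0.06 (-0.17 to 0.06), and Dclk1 remained higher by 0.22 (0.17 to 0.27).

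In AP-like cells 8 of the 10 genes were higher in cKO, where 48.3% of all genes were higher and 51.7% lower. The largest log2 ratio was that of Tubb3, from 139 to 192 CPM (0.47, 0.39 to 0.55), followed by Stmn3 (0.34, 0.24 to 0.45). Stmn1 was lower by 0.09 (-0.11 to -0.07). With clusters drawn at a resolution of 0.4, 4 of the 10 were higher and Tubb3 had a log2 ratio of 0.19. Red blood cell-like cells had more Tubb3 in the cKO embryo as well, 360 (289 to 443) against 165 (116 to 227), and more Map1b, 401 against 107, and 0.27% against 0.13% of their UMIs were from the 10 genes. With cells called doublets left out, the mean level of the 2 embryos in AP-like cells was 35.0 for Stmn2 in place of 80.8 and 37.0 for Dcx in place of 83.3. The part of free RNA and of doublets in the AP-like differences was not tested.

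**Figure D5:**
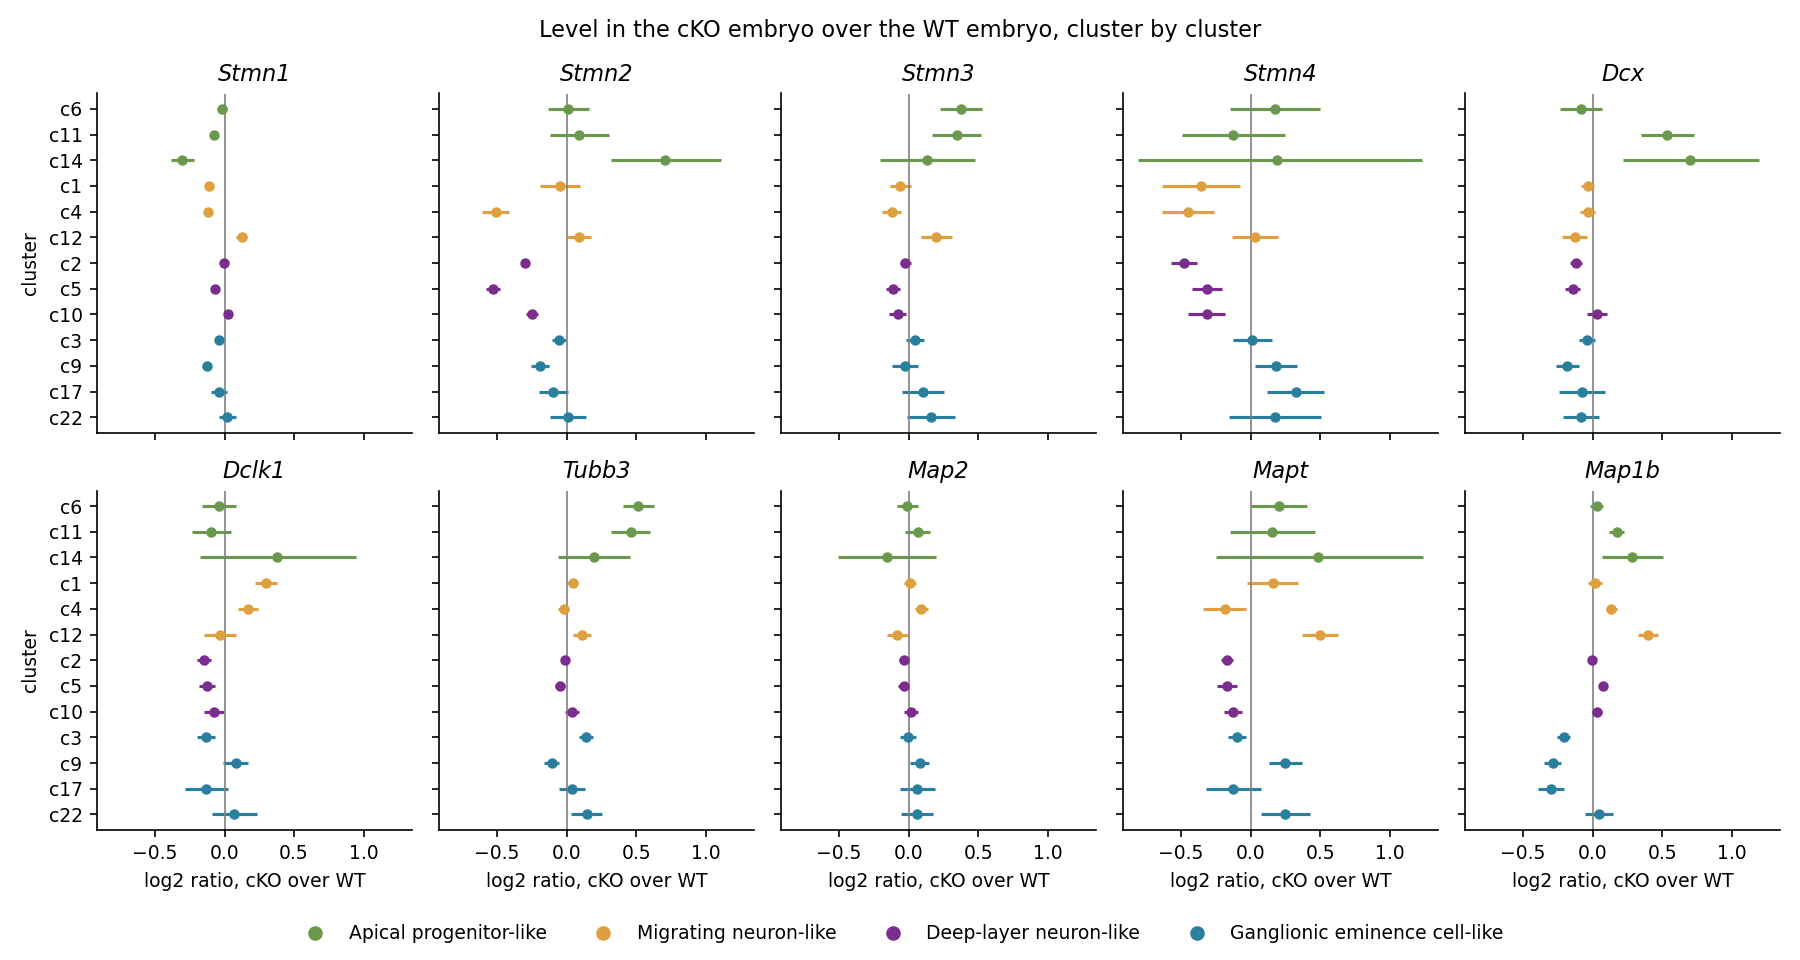
Log2 ratio of the level in the cKO over the WT embryo (x axis) for each gene in each cluster (y axis) of 4 classes; bars are exact 95% intervals of counting error, with 1 embryo per genotype. Stmn2 and Stmn4 lie below 0 in the 3 deep-layer clusters, whereas Stmn4 lies at or above 0 in the 4 ganglionic eminence clusters and the migrating neuron clusters differ among themselves.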

How the data were processed

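The culture table that the authors deposited holds raw read counts, 1 value for every gene and library. Per the paper's methods, reads were filtered with NGSQC and aligned to mm10 with HISAT2; the counting program, annotation and strand setting were each not given in the sources used here. For single cells, the authors deposited raw UMI counts written by Cell Ranger 7.0.0 per the file headers; whether intronic reads were counted is not given. The Syncrip-bound RNA libraries (3 samples) were not analysed here.

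The tests used edgeR 4.0.16 in R 4.3.3: filterByExpr, TMM, a robust quasi-likelihood fit over all genes, two-sided, with Benjamini-Hochberg adjustment at 0.05. For 1 gene, an exact permutation p over 3 and 3 cultures cannot go below 0.1. The fit was tested on simulated data. Barcodes with 200 or more genes and no more than 10% mitochondrial UMIs were clustered with Seurat 5.3.0 at resolution 0.8 without integration; the limits for naming a cluster (3 markers raised 1.5-fold) were set after clusters were seen. Scrublet in scanpy 1.11.5 called 298 WT and 444 cKO doublets, left out only as an alternative. Of the 27 clusters, 3 got no name. Intervals are exact (Poisson, Clopper-Pearson) and cover counting error only; UMIs are molecules, but the RNA-seq reads have no molecular identifiers. Ratios between the embryos use genes with at least 200 UMIs in a class. The genes and lists were chosen with earlier results of these data known. Named were all 10 genes, the 5 largest rises and falls of other microtubule genes and the 5 largest falls of neuron markers above 5 CPM, tubulins by their level in cells, and the 2 genes with at least 500 UMIs most like each gene, of which 1 is not reported here. Alternatives were other scalings and filters, DESeq2 1.42.0, limma-voom 3.58.1, a replicate block, sex as a covariate, a trend with gene span, each culture left out, resolutions 0.4 and 1.2, other cell filters and other depths.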

Additional observations from a re-analysis of the deposited data

Results flagged for a closer look

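Of the 10 genes, 5 were lower in cultures labelled cKO and higher in AP-like cells of the cKO embryo with an interval above 0. This difference between the experiments was not tested. The share of all genes that met both conditions was not counted, so the number is not read as particular to these genes. Of all tested genes 19.8% were called lower in culture, and 48.3% of genes with at least 200 UMIs had an AP-like ratio above 0. The log2 fold change in culture and the log2 ratio in AP-like cells were -6.56 and 0.12 for Stmn2, -0.30 and 0.34 for Stmn3, -0.30 and 0.21 for Dcx, -1.33 and 0.23 for Mapt, and -1.04 and 0.11 for Map1b. In CPM, the AP-like levels of the first 4 genes were not above those of red blood cell-like cells beyond the intervals, and red blood cell-like cells held fewer UMIs. With clusters drawn at a resolution of 0.4, the AP-like ratio was -0.24 for Stmn2 and -0.046 for Dcx, so that neither was higher in cKO, and that of Mapt was 0.04.

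Opposite directions in deep-layer neuron-like and ganglionic eminence cell-like cells, with both intervals clear of 0, were found for 2 genes. The share of all genes with this pattern was not counted. The difference was not tested, since there was 1 embryo of each genotype. Stmn4 had a log2 ratio of -0.37 in deep-layer neuron-like and 0.11 in ganglionic eminence cell-like cells, and Map1b had 0.04 and -0.23. In 2 of the 4 ganglionic eminence cell-like clusters the Stmn4 interval lay above 0.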

How the results depend on the processing

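In culture, 8 of the 10 genes were lower under RLE and upper-quartile scaling, both other filters, DESeq2, limma-voom, the replicate block and the sex covariate, and 7 with the trend with gene span removed, where Stmn3 had an adjusted p of 0.065. Leaving out each culture in turn gave 6 to 8 lower and 0 to 1 higher, and the single gene that became higher, Map2, did so without WT culture 1 and with the sex covariate (1 higher). Neuron markers lower ranged from 13 to 15 over the sets of 5 cultures, and 0 to 1 became higher (1 with the sex covariate). Of the other microtubule genes, 5 to 10 were higher over the sets of 5 cultures and 6 with the span trend removed. Over all genes, these sets gave 2040 to 3275 lower and 2068 to 3070 higher.

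The study states no pairing of the cultures, so the main fit had no replicate block. Same-numbered cultures correlated by 0.264, -0.047 and 0.116 in their deviations from the group means. With the replicate number as a block, 3216 genes were lower and 3189 higher, against 2858 and 2843 without it. No call of the 10 genes changed.

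In the embryos, clustering at 0.4 made 4 of the 10 genes higher in AP-like cells, with Stmn2 at -0.24 and Dcx at -0.046, and in migrating neuron-like cells gave -0.43 for Stmn2, -0.073 for Stmn3, -0.35 for Stmn4 and 0.003 for Dcx. At 1.2 Stmn2 was at -0.027 there. Without the Tfap2d cluster, added after the data were seen, Stmn2 was at -0.38, Stmn3 at -0.10, Stmn4 at -0.43 and Mapt at -0.057, with 4 of the 10 higher. Scaling without mitochondrial, ribosomal and haemoglobin genes made 2 of the 10 higher in deep-layer neuron-like cells. By Spearman's rho, 1 of the 20 most alike genes was the same. The cause of these shifts was not tested, apart from the cluster left out. Depth limits Stmn2 in the cKO cultures, at 2 to 4 counts, and the small non-neural classes.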
